A study of Mus musculus with 9 samples.

Results

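The Runx family and its core-binding partner comprised 4 genes here, Runx1, Runx2, Runx3 and Cbfb, which were chosen by their symbols among the 16399 genes listed for every library. Of these 4 genes, 3 were listed. Runx1, Runx2 and Cbfb also passed the filter on low values, which left 11287 tested genes. Runx3 was not among the listed genes, so its RNA level is not known here, and only its promoter windows and a list of its targets are described. Poly(A) RNA was sequenced from 3 groups of cultured MC38 cells, a mouse colon carcinoma line whose labels give the tissue as colon and the cell type as epithelial. MC38-P was the parental line, and MC38-LM3a and MC38-LM3b were 2 derivatives recovered independently after 3 rounds of intrasplenic injection into C57BL/6 mice and recovery of the cells from liver metastases. The cells that entered the selection carried a GFP and luciferase reporter, and no group received a drug. Each group had 3 libraries. Nothing in the labels said that these came from separate cultures, and the study's methods call the replicates biological without saying whether they were separate cultures, so the p-values measure the spread between these libraries, part of which may be technical. Each derivative was 1 selected line, so 3 libraries of MC38-LM3a are not 3 selections. In bulk RNA, a change in the number of cells that express a gene and a change in RNA per cell cannot be told apart.

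Runx proteins are transcription factors that bind DNA through a conserved Runt domain, with TGTGGT and TGCGGT as the usual core of the motif. CBFβ, encoded by Cbfb, touches no DNA itself but binds the Runt domain and raises its affinity for DNA, so each Runx protein depends on the same partner. Runx1 is known for the formation of blood stem cells, Runx2 for bone formation, and Runx3 for T cells, sensory neurons and the gut epithelium. The question of the comparison was whether the liver-selected derivatives differed from the parental line in these factors, since the study placed Runx1 upstream of SLAMF3, a receptor of the SLAM family encoded by Ly9.

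Promoter sequences are shown because they hold what the Runx genes share beyond the protein they encode. Promoter windows from RefSeq (build GRCm38.p6) span 250 bases before to 50 bases after a start site, and 6 windows matched the 4 genes. TGTGGT and TGCGGT were searched on both strands, and ACCACA is TGTGGT read on the opposite strand. The stretches below run 5′ to 3′ on the strand of the gene, with ACCACA and TGCGGT in capitals.
Runx1, distal window, chr16:92826025-92826054, minus strand: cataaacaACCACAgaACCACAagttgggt
Runx2, chr17:44814583-44814612, minus strand: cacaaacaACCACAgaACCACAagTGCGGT
Runx3, distal window, chr4:135120503-135120532, plus strand: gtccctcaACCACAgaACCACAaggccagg

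All 3 stretches held the same pair of motif copies. The longest run shared by a window of each Runx gene was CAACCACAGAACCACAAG, of 18 letters, which starts at base 27 of the transcribed sequence in Runx1, at base 22 in Runx2 and 136 bases before the start site in Runx3. This run was chosen after the sequences were seen. It was present in 4 of 32851 promoter windows, a share of 0.0122%. The other window was that of the predicted gene Gm16225, which overlapped the Runx3 window by 232 of 300 bases on the opposite strand. TGTGGT alone was present in 16.8% and TGCGGT in 6.45% of all windows, and the run holds 2 copies of TGTGGT by construction. The Cbfb window and the proximal windows of Runx1 and Runx3 held neither core motif. These matches are a description of letters in a window, and binding was not measured in these libraries.

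The files give TPM, a level per transcript length that sums to the same total over the genes of every library. They give no counts, so the depth of each library and the counting error of each value are unknown. Between 10875 and 11218 genes reached 1 TPM. Libraries of the same group stood apart along transcript length. The deviation of each library from its group mean had a Spearman correlation with the longest transcript length, across 11096 genes, of 0.51, 0.41 and -0.62 in MC38-P replicates 1, 2 and 3, and of -0.55, -0.51 and 0.64 in MC38-LM3a replicates 1, 2 and 3. In MC38-LM3b it lay between -0.01 and 0.02. Runx1 and Runx2 have long transcripts (5861 and 6463 bases, percentiles 84.5 and 88.1 of these genes), and Cbfb a shorter one (2891 bases, percentile 38.6). The levels of all members below are therefore given also after centring each library on its median and after a loess offset for length and GC content.

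Runx1 was measured at 10.33, 9.31 and 7.03 TPM in MC38-P, at 8.49, 8.47 and 14.16 TPM in MC38-LM3a, and at 14.31, 14.20 and 14.82 TPM in MC38-LM3b. All MC38-LM3b libraries were above every MC38-P library. In MC38-LM3a, replicates 1 and 2 lay within the parental range and replicate 3 reached the level of MC38-LM3b. The means were 8.89 ± 1.69, 10.4 ± 3.28 and 14.4 ± 0.331 TPM (SD, n = 3 each), which placed Runx1 between the 26.6 and 32.9 percentile of tested genes. In the limma model of all 9 libraries on log2(TPM + 1), Runx1 rose in MC38-LM3b against MC38-P by a log2 fold change of 0.66 ± 0.188 (SE, 95% interval 0.24 to 1.07, adjusted p = 0.0162). This call was lost without MC38-P replicate 3 (0.51, adjusted p = 0.0535) and without MC38-LM3b replicate 3 (0.64, adjusted p = 0.0518). In MC38-LM3a the log2 fold change was 0.18 ± 0.188 (interval -0.24 to 0.59, adjusted p = 0.531), and without replicate 3 it was -0.05 (adjusted p = 0.817).

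Runx2 gave 11.15, 9.47 and 6.99 TPM in MC38-P, 5.19, 4.80 and 7.93 TPM in MC38-LM3a, and 9.38, 8.93 and 8.83 TPM in MC38-LM3b. MC38-LM3a replicates 1 and 2 were below every other library, while replicate 3 overlapped the parental range and MC38-LM3b lay wholly inside it. The means were 9.20 ± 2.09, 5.97 ± 1.71 and 9.05 ± 0.293 TPM (SD, n = 3 each). Runx2 fell in MC38-LM3a by 0.55 ± 0.186 on the log2 scale (SE, 95% interval -0.97 to -0.14, adjusted p = 0.0470), close to the threshold. Of 21 alternative settings, 10 lost this call, among them the removal of MC38-P replicate 1 (-0.42, adjusted p = 0.156), of MC38-P replicate 2 (-0.53, adjusted p = 0.135), of MC38-LM3a replicate 1 (-0.48, adjusted p = 0.146) or 2 (-0.44, adjusted p = 0.155), and of each MC38-LM3b replicate (adjusted p = 0.0717 to 0.0726). Without MC38-LM3a replicate 3 the log2 fold change was -0.75 (adjusted p = 0.00293), where 37.4% of all genes were called. In MC38-LM3b the difference from MC38-P was -0.00 (interval -0.41 to 0.41, adjusted p = 0.995).

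Cbfb was the most abundant member in every library, with 143.21, 131.30 and 114.35 TPM in MC38-P, 120.44, 127.34 and 158.41 TPM in MC38-LM3a, and 154.02, 158.91 and 155.91 TPM in MC38-LM3b. The MC38-LM3b libraries were above all parental ones, and again only replicate 3 of MC38-LM3a stood with them. The means were 129.62 ± 14.5, 135.4 ± 20.2 and 156.28 ± 2.47 TPM (SD, n = 3 each), near the 90th percentile of tested genes (89.0, 89.5 and 90.3). Against MC38-P the log2 fold change of Cbfb was 0.06 ± 0.107 in MC38-LM3a (interval -0.18 to 0.29, adjusted p = 0.737) and 0.27 ± 0.107 in MC38-LM3b (interval 0.04 to 0.51, adjusted p = 0.0554). The latter passed the threshold without MC38-LM3a replicate 3 (adjusted p = 0.00812, with 59% of all genes called), replicate 1 of that group (adjusted p = 0.0489) or MC38-P replicate 1 (0.35, adjusted p = 0.0305).

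**Figure D1:**
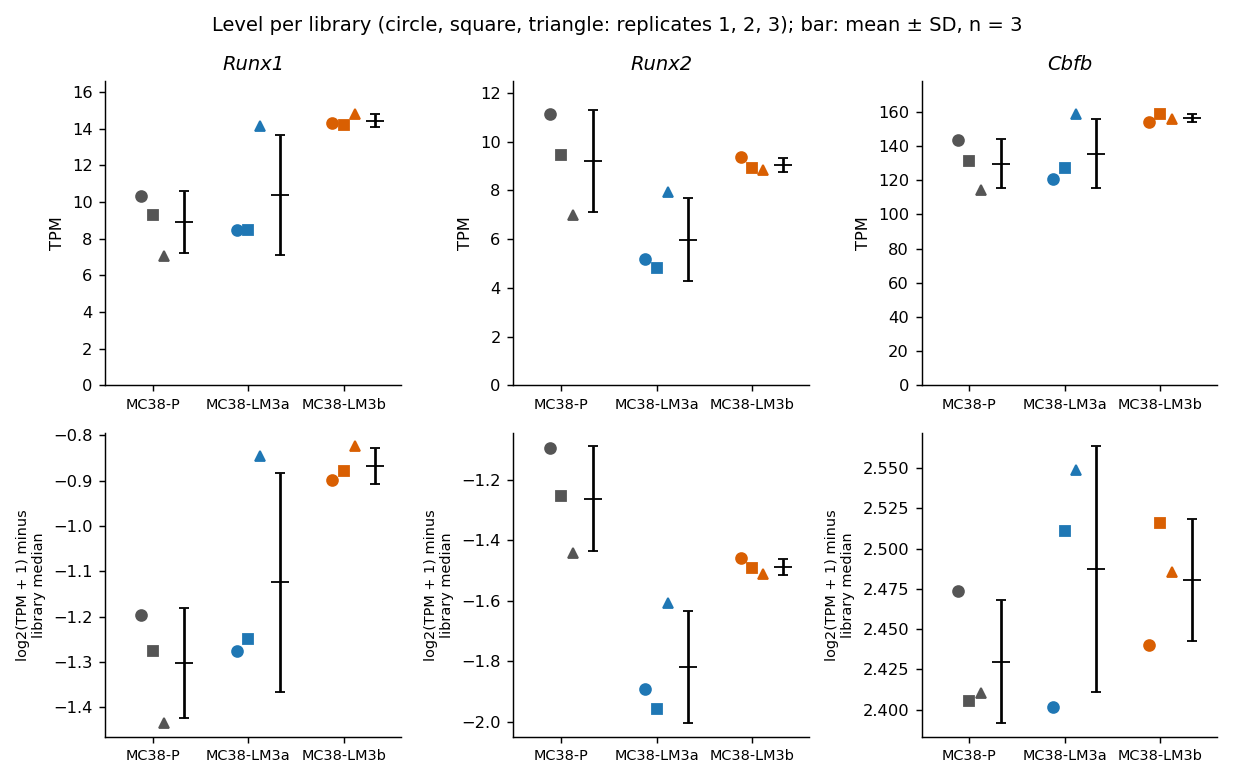
Runx1, Runx2 and Cbfb in the 9 libraries, as TPM (upper row) and as log2(TPM + 1) minus the median of the library (lower row, axes not from 0), with symbols for replicates and bars for mean ± SD (n = 3). MC38-LM3a replicate 3 (blue triangle) was above replicates 1 and 2 in every panel, and the MC38-LM3b libraries lay close together in TPM.

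Counted together, 1 of 3 tested members passed an adjusted p under 0.05 in MC38-LM3a (Runx2, lower) and 1 of 3 in MC38-LM3b (Runx1, higher). Over all tested genes the share called was 28% for MC38-LM3a and 46.7% for MC38-LM3b, so these counts say nothing particular of the family. With the added limit of an absolute log2 fold change above 1, which 2.89% and 3.93% of genes passed, limma called 0 of the 3 members in either comparison (unadjusted p under 0.05 for Runx2 in MC38-LM3a, and for Runx1 and Cbfb in MC38-LM3b). Between the derivatives, MC38-LM3b was higher than MC38-LM3a by 0.48 for Runx1, 0.55 for Runx2 and 0.22 for Cbfb, and limma called 0 of 3 (adjusted p = 0.119, 0.119 and 0.150, unadjusted p = 0.0279, 0.0131 and 0.0692), where 0.0532% of all genes were called. Without MC38-LM3a replicate 3 all 3 members were higher in MC38-LM3b (0.70, 0.75 and 0.33, adjusted p = 0.00396, 0.00433 and 0.00734), where 56.4% of all genes were called.

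The median log2 fold change of all tested genes was 0.00 for MC38-LM3a and 0.21 for MC38-LM3b, so values of the latter are read against that shift. After centring each library on its median, Runx1 was still higher in MC38-LM3b (0.43 ± 0.114, adjusted p = 0.0107) and not past the threshold in MC38-LM3a (0.18, adjusted p = 0.246). Centred Runx2 fell in MC38-LM3a (-0.56 ± 0.110, adjusted p = 0.00302) and gave -0.22 in MC38-LM3b (adjusted p = 0.116). Centred Cbfb gave 0.06 and 0.05 in the derivatives (adjusted p = 0.450 and 0.472, intervals -0.07 to 0.18 in both), so its higher TPM in MC38-LM3b was no larger than the median shift of all genes within this error. Centring called 40% of all genes for MC38-LM3a and 49.3% for MC38-LM3b.

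With the length and GC offsets both Runx genes separated the parental line from the derivatives. The share of all genes that separate in this way is not given, so the separation is not read as particular to the family. Runx1 had offset log2 levels of 3.43, 3.37 and 3.32 in MC38-P, 3.49, 3.50 and 3.77 in MC38-LM3a, and 3.72, 3.73 and 3.79 in MC38-LM3b, with no overlap between parental and derivative libraries. It rose in MC38-LM3a by 0.22 ± 0.0775 (adjusted p = 0.0390) and in MC38-LM3b by 0.38 ± 0.0775 (adjusted p = 0.00205). Runx2 had 3.53, 3.39 and 3.33 in MC38-P, 2.90, 2.83 and 3.00 in MC38-LM3a, and 3.14, 3.10 and 3.09 in MC38-LM3b, where the 3 groups did not overlap. It fell in both, with log2 fold changes of -0.51 ± 0.0699 for MC38-LM3a (adjusted p = 0.000183) and -0.31 ± 0.0699 for MC38-LM3b (adjusted p = 0.00359). Cbfb stayed at -0.00 and 0.04 (intervals -0.12 to 0.12 and -0.08 to 0.16). The offsets called 51.1% of all genes for MC38-LM3a and 57.8% for MC38-LM3b, and the smallest step, that of Runx1 in MC38-LM3a, lost its call without MC38-LM3a replicate 3 (0.12 with the offsets, adjusted p = 0.106). Without both MC38-LM3a replicate 3 and MC38-P replicate 3, and with no offsets, Runx1 was instead lower in MC38-LM3a (-0.19, adjusted p = 0.0438), as was Cbfb (-0.15, adjusted p = 0.0248).

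**Figure D2:**
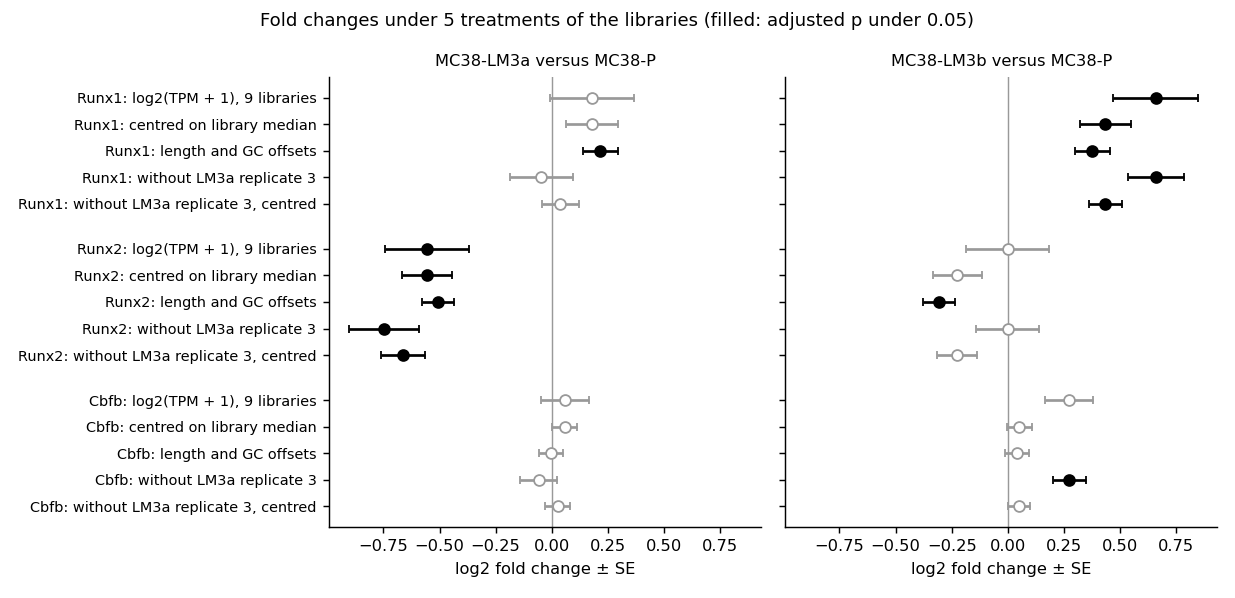
Log2 fold change ± SE of each member against MC38-P under 5 treatments of the libraries, filled where the adjusted p was under 0.05. Runx1 in MC38-LM3b and Runx2 in MC38-LM3a were filled under each of the 5 treatments shown, and Cbfb stayed within 0.06 of 0 after centring or offsets. The lowest treatment, centring without MC38-LM3a replicate 3, called 47% of all genes for MC38-LM3a and 57.7% for MC38-LM3b.

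A ratio of members within a library does not depend on how the library was scaled. Runx1 TPM per Runx2 TPM was 0.926, 0.983 and 1.01 in MC38-P, 1.64, 1.76 and 1.79 in MC38-LM3a, and 1.53, 1.59 and 1.68 in MC38-LM3b. The parental cells thus held the transcripts of both paralogs at nearly equal levels per length, and all 6 derivative libraries had more Runx1 than Runx2, including MC38-LM3a replicate 3. As a share of their summed TPM, Runx1 made up 49.3 ± 1.06% in MC38-P, against 63.3 ± 1.11% for MC38-LM3a and 61.5 ± 1.13% for MC38-LM3b (SD, n = 3 each). The log2 ratio was 0.77 higher in the derivatives (-0.04 ± 0.0611 in MC38-P, 0.73 ± 0.0874 in 6 derivative libraries, SD, two-sided exact permutation test, p = 0.0238, the smallest that 84 splits allow). With the offsets the difference was 0.70 at the same p, and without MC38-LM3a replicate 3 it was 0.75 (exact permutation p = 0.0357, the smallest possible). Against MC38-P the difference was 0.83 for MC38-LM3a and 0.72 for MC38-LM3b (exact permutation p = 0.1 in both, the smallest that 3 against 3 libraries allow). The derivatives differed from each other by -0.11 (MC38-LM3b minus MC38-LM3a, exact permutation p = 0.2). These p-values compare libraries of 3 lines, and the pair of genes was chosen with earlier results of these data known.

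The summed level of both paralogs did not follow the ratio. Runx1 plus Runx2 was 14.02 to 21.48 TPM in MC38-P, 13.27 to 22.09 TPM in MC38-LM3a and 23.13 to 23.69 TPM in MC38-LM3b, so every MC38-LM3b library and replicate 3 of MC38-LM3a lay above the parental range. Cbfb was in excess of the summed Runx transcripts in every library, by 6.67 to 8.16 times in MC38-P, 7.17 to 9.60 times in MC38-LM3a and 6.50 to 6.87 times in MC38-LM3b, where the parental range overlapped that of each derivative and the derivatives did not overlap each other. Runx1 as a percent of Cbfb was 6.82 ± 0.583% in MC38-P, against 7.55 ± 1.22% for MC38-LM3a and 9.24 ± 0.288% for MC38-LM3b. Its log2 ratio to Cbfb was 0.29 higher in the derivatives, with 4 of 6 derivative libraries above all parental ones (two-sided exact permutation p = 0.143), and 0.28 higher with the offsets, with 6 of 6 above (exact permutation p = 0.0238).

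**Figure D3:**
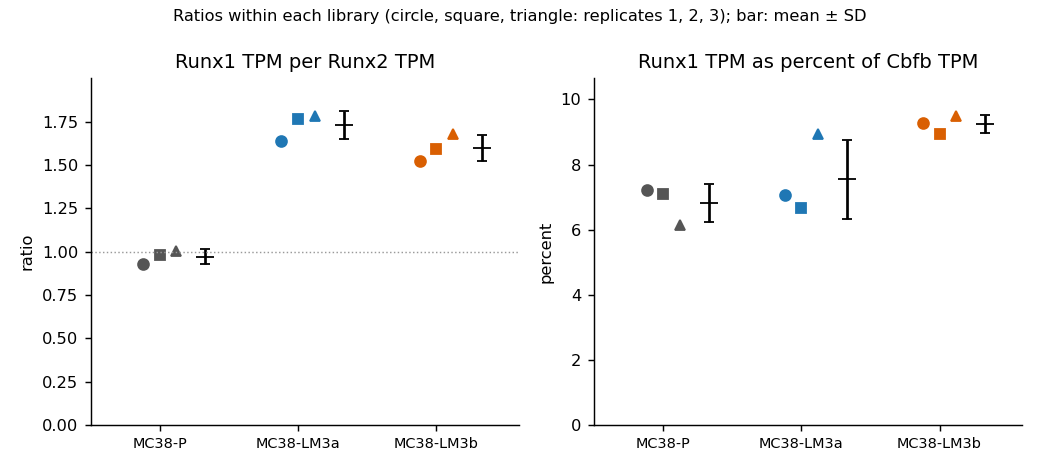
Runx1 TPM per Runx2 TPM and Runx1 TPM as a percent of Cbfb TPM in each library, with bars for mean ± SD (n = 3) and a dotted line at a ratio of 1. Parental libraries sat at 0.926 to 1.01 and derivative libraries at 1.53 to 1.79 in the left panel, whereas MC38-LM3a replicates 1 and 2 stayed within the parental range in the right panel.

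Among the factors that the study weighed at the Slamf3 promoter beside Runx1, Junb, an AP-1 subunit, had 86.03 to 97.16 TPM in MC38-P, 74.54 to 78.32 TPM in MC38-LM3a and 79.65 to 87.61 TPM in MC38-LM3b. It fell in MC38-LM3a (-0.28, adjusted p = 0.0127) and gave -0.16 in MC38-LM3b (adjusted p = 0.0909), or -0.38 after centring (adjusted p = 0.00119). Polr2a, the largest subunit of RNA polymerase II, had 129.95 to 198.07, 126.81 to 212.29 and 204.41 to 219.01 TPM in the 3 groups, with log2 fold changes of -0.15 and 0.34 (adjusted p = 0.628 and 0.167). Without MC38-LM3a replicate 3 Polr2a passed the test lower in MC38-LM3a (-0.39, adjusted p = 0.0357) and higher in MC38-LM3b (0.34, adjusted p = 0.0260, beside a median of 0.21 over all genes). With all libraries, its centred value in MC38-LM3b was 0.12 (adjusted p = 0.473). Ikzf1, the lymphoid factor Ikaros, was listed at 0 in 8 libraries and at 0.02 TPM in MC38-LM3b replicate 3.

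Ly9 was at 0.04, 0 and 0 TPM in MC38-P, at 6.92, 6.50 and 8.16 TPM in MC38-LM3a, and at 17.85, 16.14 and 17.60 TPM in MC38-LM3b, with no overlap between the groups. On the log2(TPM + 1) scale the differences from MC38-P were 3.01 (adjusted p = 4.58e-08) and 4.17 (adjusted p = 1.42e-08). In raw TPM, Runx1 did not have the same order over libraries. MC38-LM3a replicates 1 and 2 had Ly9 at 6.92 and 6.50 TPM with Runx1 at 8.49 and 8.47 TPM, below MC38-P replicates 1 and 2, which had Runx1 at 10.33 and 9.31 TPM and Ly9 at 0.04 and 0 TPM. MC38-LM3a replicate 3 had nearly the Runx1 of MC38-LM3b (14.16 against 14.20 to 14.82 TPM) with less than its Ly9 (8.16 against 16.14 to 17.85 TPM). With the length and GC offsets this order changed for MC38-LM3a replicates 1 and 2. Their Runx1 was then at 3.49 and 3.50, above the 3.32 to 3.43 of MC38-P. MC38-LM3a replicate 3 was at 3.77, above MC38-LM3b replicates 1 and 2 (3.72 and 3.73), still with less Ly9. Both the offset Runx1 level and the Runx1 to Runx2 ratio were above the parental range in every derivative library. The derivative libraries are also those with Ly9 at 6.50 TPM or more, so this restates the difference between the lines and is no separate link to Ly9. No correlation is given, since the libraries form separate clusters. In experiments outside these libraries, the study reported high RUNX1 in the derivatives. By chromatin immunoprecipitation it also reported RUNX1 bound at the Slamf3 promoter, and less of it after RUNX1 knockdown. The primers that the study used to amplify this promoter region are shown because they mark where that binding was measured, with ACCACA in capitals.
Forward primer: caggagtctgtcgtgctcaata
Reverse primer: gagatgcacttACCACAacttcct

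**Figure D4:**
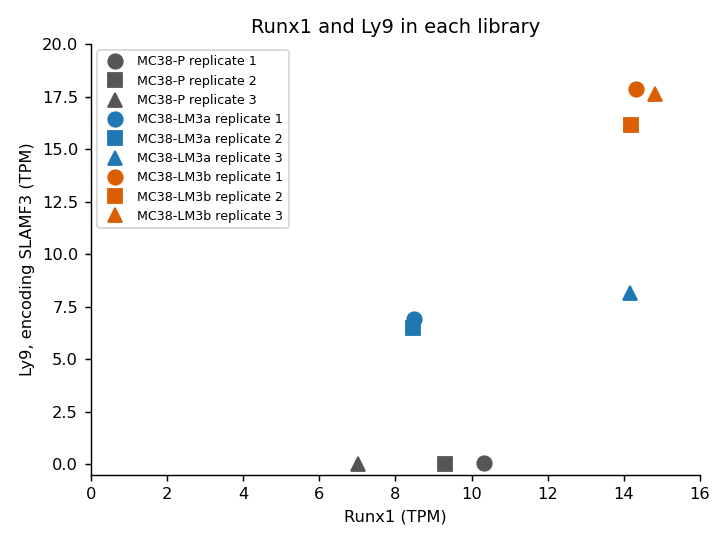
Ly9 against Runx1 in each of the 9 libraries, both in TPM, coloured by group and with symbols for replicates. The MC38-LM3a replicates 1 and 2 have Ly9 at 6.50 to 6.92 TPM at a Runx1 level inside the parental range of 7.03 to 10.33 TPM, while with the length and GC offsets their Runx1 lay above that range (3.49 and 3.50 against 3.32 to 3.43 on the log2 scale).

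Genes that act with Runx proteins were taken from lists of cofactors, modifying enzymes and target genes. The counts of each list below are read against all tested genes, of which 14.1% rose and 13.8% fell in MC38-LM3a and 35.6% rose and 11.2% fell in MC38-LM3b. After centring, 19.8% rose and 20.1% fell in MC38-LM3a, against 22.9% and 26.4% for MC38-LM3b. Of 14 corepressors, 12 were tested, 1 rose and 2 fell in MC38-LM3a, and 1 rose in MC38-LM3b. The list medians were -0.11 and 0.11 against 0.00 and 0.21 over all genes. After centring, 1 rose and 3 fell in MC38-LM3a, and 0 rose and 3 fell in MC38-LM3b. Hdac1, a histone deacetylase, was higher in both (0.28 and 0.28, adjusted p = 0.00541 and 0.00338), but in MC38-LM3b it was at 0.06 after centring (adjusted p = 0.536). The Groucho-type corepressors Tle3 and Tle2, named after their values were seen, fell in MC38-LM3a (-0.70 and -0.59, adjusted p = 0.00948 and 0.0446). In MC38-LM3b Tle3 had -0.24 (adjusted p = 0.249), or -0.46 after centring (adjusted p = 0.00249), and Tle2 had -0.12 (adjusted p = 0.638), or -0.34 after centring (adjusted p = 0.0596).

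All 10 coactivators were tested, and 4 fell in MC38-LM3a while 4 rose and 2 fell in MC38-LM3b, with medians of -0.14 and 0.37. After centring, 3 fell in MC38-LM3a and 2 rose and 3 fell in MC38-LM3b. With the length and GC offsets, which called 51.1% and 57.8% of all genes, 2 rose and 4 fell in MC38-LM3a. In MC38-LM3b 3 rose and 4 fell with them. Hipk2, a kinase that phosphorylates Runx1 and its acetyltransferase partner, fell most, from 4.67 to 8.47 TPM in MC38-P to 2.20 to 3.78 TPM in MC38-LM3a and 4.21 to 4.23 TPM in MC38-LM3b (-1.06 and -0.56, adjusted p = 0.00313 and 0.0434). Prmt1, an arginine methyltransferase that acts on Runx1 and was named after its values were seen, also fell in both (-0.22 and -0.44, adjusted p = 0.0211 and 0.000264), although in MC38-LM3a its centred value had an adjusted p of 0.181. The members that rose in MC38-LM3b were Kat6b, Kmt2a, Wwtr1 and Yap1 (0.74, 0.65, 0.40 and 0.34), named after their values were seen. Of these, Kat6b and Wwtr1 also passed after centring.

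The 13 enzymes that modify Runx proteins were all tested. In MC38-LM3a 2 fell, and in MC38-LM3b 6 rose and 1 fell, with medians of 0.03 and 0.21, the latter equal to the shift of all genes. After centring, 1 rose and 2 fell in MC38-LM3a, and 6 rose and 4 fell in MC38-LM3b. With the length and GC offsets, 6 rose and 2 fell in MC38-LM3a, and 6 rose and 4 fell in MC38-LM3b. The offsets called 51.1% and 57.8% of all genes in either direction. The ubiquitin ligases Smurf1, Smurf2, Wwp1 and Itch, which act on Runx2 and its relatives, rose in MC38-LM3b by 0.45 to 0.58, as did the tyrosine kinase Src and the phosphatase Ptpn11 (0.59 and 0.43). These 6 genes were named after their values were seen, and they also passed after centring (0.21 to 0.36). Skp2, the F-box protein of a ligase that acts on Runx2, fell in both derivatives, from 57.53 to 68.85 TPM in MC38-P to 35.13 to 43.52 TPM in MC38-LM3a and 39.07 to 41.10 TPM in MC38-LM3b (-0.72 and -0.65, adjusted p = 0.000395 and 0.000554). Skp2 lies on chromosome 15, as does the keratin gene Krt8 described below, and the part of this position in their falls was not tested.

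Of 18 transcription factors that share regulatory regions with Runx1 in blood cells, 13 were listed and 7 tested. In MC38-LM3a 1 rose, and in MC38-LM3b 5 rose, with medians of 0.18 and 0.52 against 0.00 and 0.21 over all genes (14.1% and 35.6% of which rose). After centring, 4 rose and 1 fell in MC38-LM3a, and 4 rose and 2 fell in MC38-LM3b. Elf1, an Ets factor, rose in both (0.50 and 0.76, adjusted p = 0.0188 and 0.00130), from 29.20 to 37.70 TPM in MC38-P to 43.19 to 60.03 TPM in MC38-LM3a and 55.92 to 63.59 TPM in MC38-LM3b. Gata2, Ets1, Elf4 and Ldb1, named after their values were seen, rose in MC38-LM3b (0.52, 0.54, 0.70 and 0.35), and all but Ldb1 passed after centring. The remaining tested factors, Gata3 and Cebpa, had 3.09 to 4.89 TPM and 1.75 to 3.27 TPM and did not pass in the model of all 9 libraries without centring. The 6 listed factors that were not tested stayed at 0.43 TPM or less.

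Target genes known from other tissues were mostly near 0. Of a list of 11 Runx1 targets in blood cells, 2 were tested, Ly9, which is in the list because of this study and not from other tissues, and Pf4 (at most 1.61 TPM), and the rest of those listed stayed at 1.04 TPM or less. Of 18 Runx2 targets in bone and cartilage, 6 were tested, 3 fell in MC38-LM3a, and in MC38-LM3b 1 rose and 2 fell (medians -0.35 and 0.01 against 0.00 and 0.21 over all genes, of which 13.8% fell in MC38-LM3a, and 35.6% rose and 11.2% fell in MC38-LM3b). After centring, 4 fell for MC38-LM3a, 3 fell for MC38-LM3b, and none rose in either, where 20.1% and 26.4% of all genes fell. Col1a1, which encodes a chain of type I collagen, fell in both derivatives (-1.55 and -1.48, adjusted p = 9.81e-05 and 9.91e-05), from 10.36 to 15.99 TPM in MC38-P to 3.52 to 5.03 TPM in MC38-LM3a and 4.17 to 4.44 TPM in MC38-LM3b. It is also a fibroblast marker. Of the other 3 tested fibroblast markers, Col3a1 and Acta2 fell with it (-1.34 and -0.90 in MC38-LM3a, -1.19 and -1.02 in MC38-LM3b), while Pdgfrb was at 0.30 in MC38-LM3a (adjusted p = 0.135, or 0.0256 after centring) and rose in MC38-LM3b (0.88, adjusted p = 0.000695). Their part in this fall was not tested. Phex, an endopeptidase of bone mineralization named after its values were seen, fell in both (-0.95 and -0.94, adjusted p = 0.000298 and 0.000217). Spp1, which encodes osteopontin and was named after its values were seen, fell in MC38-LM3a (-0.41, adjusted p = 0.00390) and gave -0.12 in MC38-LM3b (adjusted p = 0.234). After centring on the library median, its mean log2 level was 3.38 in MC38-P and 3.04 in MC38-LM3b, a wider gap. Of 11 Runx3 targets, 3 were tested, 1 rose in MC38-LM3a and 2 rose in MC38-LM3b (14.1% and 35.6% of all genes rose), and after centring the counts were 2 and 1. Cdkn1a, which encodes the cell cycle inhibitor p21, rose in both (0.30 and 0.27, adjusted p = 0.00471 and 0.00602), but in MC38-LM3b its centred value was 0.04 (adjusted p = 0.667).

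**Figure D5:**
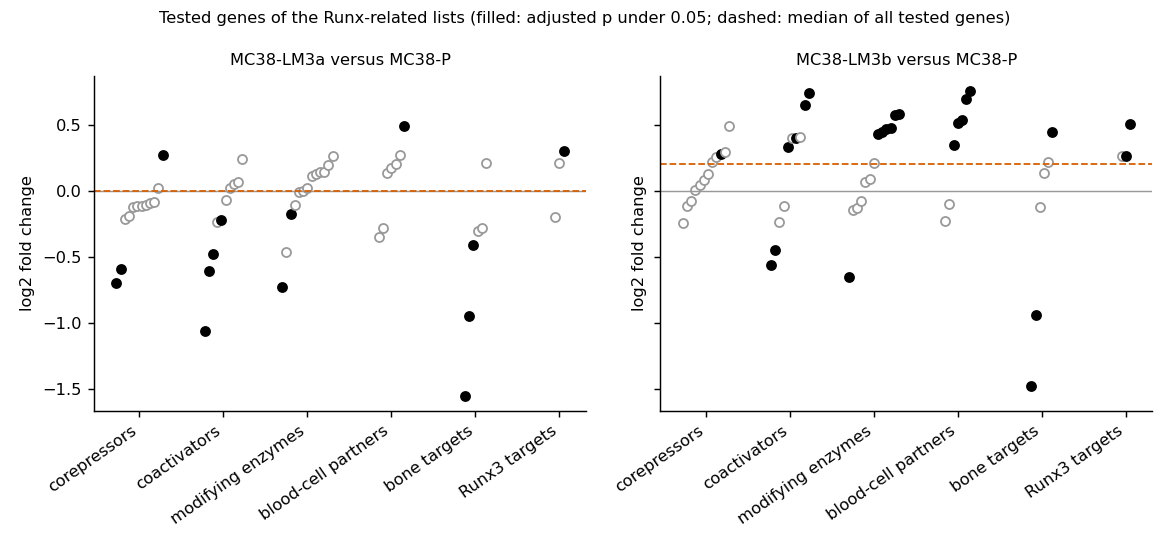
Log2 fold change of each tested gene of 6 lists against MC38-P, sorted within a list, filled where the adjusted p was under 0.05, with a dashed line at the median of all tested genes. In MC38-LM3b filled blood-cell partners lay above that line, and Col1a1 was the lowest point of the bone list in both panels. The list of blood-cell targets, with 2 tested genes, is not drawn.

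The nearest tested neighbour on each side of each member did not pass the test in the model of all 9 libraries. After centring, Setd4 fell in MC38-LM3a (-0.34, adjusted p = 0.0272) and Supt3 in MC38-LM3b (-0.46, adjusted p = 0.0166). Runx1 lies on chromosome 16 between Rcan1 and Setd4, the nearest tested genes, whose log2 fold changes were 0.01 and -0.34 in MC38-LM3a and 0.12 and 0.14 in MC38-LM3b (adjusted p = 0.954, 0.082, 0.390 and 0.399). The 10 nearest tested genes had a median of 0.05 in MC38-LM3b, and chromosome 16 as a whole 0.21. Runx2 lies on chromosome 17 between Clic5 and Supt3 (0.04 and -0.23 in MC38-LM3a, adjusted p = 0.869 and 0.140), with a median of -0.07 over 10 neighbours and 0.00 over the chromosome. Cbfb lies on chromosome 8 between Ciao2b and D230025D16Rik (-0.06 and 0.06 in MC38-LM3b, adjusted p = 0.652 and 0.707). The median was 0.17 over 10 neighbours and 0.20 over the chromosome. Of the 10 neighbours of Runx1, 1 fell in MC38-LM3a, and 1 rose and 1 fell in MC38-LM3b. Of those of Runx2, 2 fell in MC38-LM3a and 2 rose in MC38-LM3b. Of those of Cbfb, 1 rose and 1 fell in MC38-LM3a, and 3 rose in MC38-LM3b. Over all tested genes 14.1% rose and 13.8% fell in MC38-LM3a, and 35.6% rose and 11.2% fell in MC38-LM3b.

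The genes whose log2(TPM + 1) followed a member most closely over the 9 libraries were Rad50, Trappc10 and Fam168b for Runx1 (Pearson r = 0.998 for each), Tns2, Pde10a and Pacsin2 for Runx2 (r = 0.995, 0.993 and 0.993), and Creb1, Phlpp2 and Zmym2 for Cbfb (r = 0.995, 0.995 and 0.994). These 9 points share 3 lines and the length trend of the libraries, and 1468, 388 and 1053 genes had r above 0.95 with Runx1, Runx2 and Cbfb. After centring, the closest genes were Dst, Trappc10 and Vps13c for Runx1 (r = 0.994, 0.993 and 0.992), Pask, Tns2 and Cplane1 for Runx2 (r = 0.992, 0.985 and 0.984), and Dusp4, Cstdc4 and Septin2 for Cbfb (r = 0.875, 0.869 and 0.866), and 261, 92 and 0 genes had r above 0.95. Of the genes most like Runx2, Tns2, Pacsin2 and Cplane1 lie on chromosome 15, Pde10a on chromosome 17 like Runx2 itself, and Pask on chromosome 1. What the shared chromosome contributed was not tested. For Cbfb the likeness to Creb1 was 0.84 after centring and 0.12 with the offsets.

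The defining markers of blood, liver and endothelial cells that the files list were mostly near 0. Of 6 pan-hematopoietic markers, 4 were listed and only Itgb2 was tested (13.99 to 15.49 TPM in MC38-P, 27.49 to 32.96 TPM in MC38-LM3a and 36.33 to 38.10 TPM in MC38-LM3b), while Ptprc, which encodes CD45, was at most 0.09 TPM. Of 10 macrophage markers 5 were listed and only Cd68 was tested, with a summed level of the list of 28.58 to 30.46, 34.62 to 41.48 and 40.37 to 45.93 TPM in the 3 groups, and Csf1r was at most 0.14 TPM. Mrc1 and Cd163, too low to be tested, were lower in every derivative library than in MC38-P, at 0.33 to 0.47 against 0.52 to 0.79 TPM and at most 0.02 against 0.12 to 0.42 TPM. Itgb2 and Cd68 rose in both derivatives (0.97 and 1.29, 0.33 and 0.57, adjusted p = 3.72e-05, 3.82e-06, 0.0220 and 0.000795), and their part in the results above was not tested. Of 9 T, B and NK cell markers 2 were listed and summed to at most 0.45 TPM (Cd79a), so the level of the other 7 is not known here. The 6 listed of 8 hepatocyte markers summed to at most 1.00 TPM (Alb at most 0.29 TPM) and the 5 listed of 6 endothelial markers to at most 1.90 TPM (Cdh5 at most 1.39 TPM). The fibroblast list summed to 138.82 to 175.47 TPM in MC38-P, 55.04 to 74.28 TPM in MC38-LM3a and 66.82 to 72.98 TPM in MC38-LM3b, with Col3a1 the most abundant (-1.34 and -1.19, adjusted p = 2.08e-05 and 3.64e-05), while Dcn was at most 0.13 TPM. Of its 4 tested genes 3 fell in both derivatives, and Pdgfrb rose in MC38-LM3b. The epithelial list summed to 2002.46 to 2317.06 TPM in MC38-P, 1590.27 to 1809.57 TPM in MC38-LM3a and 1582.98 to 1627.59 TPM in MC38-LM3b, and 4 of its 5 tested genes fell in both derivatives, where 13.8% and 11.2% of all genes fell. After centring 3 fell in MC38-LM3a and 4 fell in MC38-LM3b. The other, Krt19, was at -0.08 in MC38-LM3b (adjusted p = 0.413). In MC38-LM3a it rose (0.39, adjusted p = 0.00358), and its centred value was also 0.39 (adjusted p = 0.0504). Krt8 led it at 1047.28 to 1205.60, 743.78 to 851.15 and 747.21 to 780.79 TPM (-0.48 and -0.56, adjusted p = 0.000465 and 0.000134), whereas Epcam was at 4.93 to 6.31, 1.93 to 2.17 and 1.87 to 2.40 TPM (-1.14 and -1.07, adjusted p = 9.61e-05 and 0.000104) and Cdh1, which encodes E-cadherin, at most 0.08 TPM. Their part in the results above was not tested. Cldn7 and Vil1 of the same list were also near 0, at most 0.15 and 0.13 TPM. The label of an epithelial cell thus held for the keratins and not for E-cadherin, Cldn7 or Vil1.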

How the data were processed

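The authors deposited 1 table of TPM per library, for 9 libraries sequenced on the DNBSEQ platform after poly(A) selection. Per the labels' processing notes, HISAT and GRCm39 were used, with no version or role given, and the quantification tool is not given in the sources used here. Groups came from the sample titles. TPM were converted to log2(TPM + 1), and genes that reached 1 TPM in 3 or more libraries were fitted in limma 3.58.1 (R 4.3.3) with 1 mean per group over all 9 libraries, a trended variance and Benjamini-Hochberg adjustment over all 11287 tested genes. The count-based test of the study could not be run on TPM. Its thresholds (adjusted p under 0.05, absolute log2 fold change above 1) were kept. A fold change on this scale understates that of low genes. Ratios were tested by exact permutation in scipy 1.17.1. Offsets came from a loess fit (span 0.3) of each library on longest transcript length and GC content (GENCODE M21, 98.3% of tested genes). The procedure was tested on simulated data.

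Named genes were the members, Ly9, Junb, Polr2a, Ikzf1, the largest rise and fall of each list among genes called in both derivatives, the 3 genes most like each member, the nearest tested neighbours (positions from an annotation of GRCm38.p6, so no coordinates are printed other than those of the RefSeq promoter windows), and the most abundant gene of each marker list. All others (among them Pf4, Gata3, Cebpa, Acta2, Pdgfrb, Krt19, Mrc1, Cd163, Ptprc, Csf1r, Dcn and Cdh1) were named after their values were seen. The members and lists were chosen with earlier results of these data known. Alternatives changed the pseudocount, filter, scaling, offsets, libraries and replicate block.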

Additional observations from a re-analysis of the deposited data

Results flagged for a closer look

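Ly9 differed between the derivatives in the test of that difference itself. Its level was 7.19 ± 0.863 TPM for MC38-LM3a and 17.2 ± 0.924 TPM for MC38-LM3b (SD, n = 3 each), and MC38-LM3b was higher by 1.16 on the log2(TPM + 1) scale (limma, adjusted p = 0.00318). All 3 MC38-LM3b libraries were above all 3 MC38-LM3a libraries. None of the tested Runx genes or Cbfb was called between the derivatives with all libraries (limma, adjusted p = 0.119 to 0.150), where only 0.0532% of all genes were called. Without MC38-LM3a replicate 3, Runx1, Runx2 and Cbfb were all called higher in MC38-LM3b (limma, adjusted p = 0.00396, 0.00433 and 0.00734), where 56.4% of all genes were called. What accounts for the Ly9 difference was not tested. In groups of 3 libraries, no search for single outlying libraries was made.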

How the results depend on the processing

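Runx1 in MC38-LM3b kept its direction in all 21 settings. Against MC38-P, leaving out 1 library at a time gave -0.05 to 0.29 for Runx1 in MC38-LM3a, 0.51 to 0.76 for Runx1 in MC38-LM3b, -0.75 to -0.42 and -0.17 to 0.14 for Runx2, and -0.06 to 0.14 and 0.19 to 0.35 for Cbfb. Between the derivatives it gave 0.36 to 0.70 for Runx1, 0.43 to 0.75 for Runx2 and 0.14 to 0.33 for Cbfb. It gave 0.74 to 0.80 for the log2 ratio of Runx1 to Runx2, where leaving out a parental library cannot go below an exact permutation p of 0.0714, and 0.22 to 0.35 for that of Runx1 to Cbfb. The number of called genes ranged from 2083 to 4211 in MC38-LM3a, from 3702 to 6637 in MC38-LM3b and from 0 to 6351 between the derivatives, where the highest value came without MC38-LM3a replicate 3. With the limit on fold change it ranged from 286 to 349, from 358 to 507 and from 0 to 19.

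Runx2 in MC38-LM3a (-0.55) lost its call without the filter (adjusted p = 0.0884) and with only the compared groups in the model (adjusted p = 0.113), and Cbfb in MC38-LM3b (0.27) gained one with only the compared groups (adjusted p = 0.0146). Runx2 in MC38-LM3b was called after quantile normalization (-0.28), with the offsets (-0.31), and with the offsets and without MC38-LM3a replicate 3 (-0.31). Runx1 in MC38-LM3a was called with the offsets (0.22), which also took the ratio of Runx1 to Cbfb past its threshold (0.28). Without MC38-LM3a replicate 3, the derivatives differed for Runx1 and Runx2 after centring (0.40 and 0.44) and with the offsets (0.25 and 0.24). The offsets without MC38-LM3a replicate 3, the offsets on both ratios, and the settings without MC38-LM3a replicate 3 and MC38-P replicate 3 were chosen after seeing the data. The last of these gave -0.91 for Runx2 in MC38-LM3a, reversed Runx1 and Cbfb in MC38-LM3a (-0.19 and -0.15), called Cbfb in MC38-LM3b (0.19), called Runx1, Runx2 and Cbfb between the derivatives (0.70, 0.75 and 0.33), and gave a ratio difference of 0.78 (exact permutation p = 0.0952, the smallest possible). D230025D16Rik reversed in MC38-LM3b after quantile normalization (-0.19). The cause was not tested.

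Called genes in MC38-LM3a numbered 3160, against 2105 with only the compared groups, 5666 with the offsets, and without MC38-LM3a replicate 3 5290 after centring, 5855 with the offsets and 7111 without MC38-P replicate 3 as well. Between the derivatives they numbered 6, against 2 with a pseudocount of 0.1, 0 with the filter in all 9 libraries, 3 with only the compared groups, 12 after centring, 10 after quantile normalization and 22 with the offsets, and without MC38-LM3a replicate 3 4312 after centring, 2068 with the offsets and 8025 without MC38-P replicate 3 as well. Where 0 genes were called with the filter in all libraries, limma gave 4149 genes an unadjusted p under 0.05. With the limit on fold change, the pseudocount of 0.1 gave 550 genes in MC38-LM3a (326 otherwise) and 705 in MC38-LM3b (444 otherwise), and the filter in all libraries gave 208 in MC38-LM3a. Between the derivatives that limit left 3 genes, against 0 with the filter in all libraries and 16, 11 and 20 in the settings without MC38-LM3a replicate 3 (centred, with offsets, and without MC38-P replicate 3).

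The replicate numbers did not pair the libraries, since same-numbered libraries of different groups correlated between -0.66 and 0.07 over 9 pairs. With a replicate block, Runx1 in MC38-LM3b was 0.66 (adjusted p = 0.0461), Runx2 in MC38-LM3a lost its call (-0.55, adjusted p = 0.109), and 2200, 3891 and 2 genes were called in the 3 comparisons. With the block and the offsets, Runx2 in MC38-LM3b was called (-0.31), Runx1 in MC38-LM3a lost the call that the offsets gave it (0.22, adjusted p = 0.0577), and 5231 genes were called in MC38-LM3a.

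The files hold no counts, so depth sets an unknown limit, most for low genes such as Ikzf1. Each derivative is 1 selected line.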
